A study of Mus musculus with 6 samples.

Results

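The microRNAs (miRNAs) described here are those of the miR-17-92 cluster (mmu-miR-17, mmu-miR-18a, mmu-miR-19a, mmu-miR-20a, mmu-miR-19b and mmu-miR-92a), of its paralogue, the miR-106a-363 cluster (mmu-miR-106a, mmu-miR-20b and mmu-miR-363, with a second copy each of miR-19b and miR-92a), and mmu-miR-92b, a single gene whose product is closely related to miR-92a. They were found by matching 10 names to the non-control entries of a mouse miRNA array, after removal of the version ending and without passenger-strand forms. Of these, 8 names matched, out of 611 mouse miRNA entries, and were read by 18 probes. miR-106a was not analysed here, and miR-363 matched only under the name miR-363-3p, so it is given with the related miRNAs. The cells were MCT, a line of mouse renal tubule cells with the strain background SJL H-2S, either as control (3 arrays) or with transforming growth factor β (TGFβ) at 3 ng/ml for 72 hours (3 arrays). Per the labels' protocols, the fetal calf serum in the medium was lowered on the day before the cytokine was added. MCT is 1 cell line, and the labels do not state whether the 3 replicates of a group were separate cultures. The p-values therefore measure only how far these samples spread, and that spread may be technical.

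The miRNAs of the miR-17-92 cluster are cut from 1 primary transcript whose transcription is driven by MYC and E2F factors, and the cluster is known for promoting proliferation and restraining apoptosis. After the primary transcript is cut, each hairpin is processed and each mature miRNA is turned over on its own, so cluster mates need not have equal levels. In kidney the cluster is known for its role in nephron progenitors and in the growth of cysts in polycystic disease. TGFβ acts on tubular cells as a cytokine that slows the cell cycle and drives matrix production, and several components of its pathway, including the type II receptor Tgfbr2 and the matrix protein Ctgf, are known targets of members of these clusters.

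The members fall into 4 groups by their seed, bases 2 to 8 of the mature strand, which pairs with target mRNAs. The mature sequences from RefSeq (GRCm38.p6) are shown because their likeness sets how far the array can tell the members apart. All 8 names matched there, under the guide-strand name (5p for miR-17, miR-18a, miR-20a and miR-20b, 3p for the others). Capitals mark the seed.
miR-17: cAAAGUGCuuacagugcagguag
miR-20a: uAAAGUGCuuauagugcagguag
miR-20b: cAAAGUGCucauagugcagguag
miR-18a: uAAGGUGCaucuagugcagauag
miR-19a: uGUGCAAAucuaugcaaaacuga
miR-19b: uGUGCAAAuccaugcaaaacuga
miR-92a: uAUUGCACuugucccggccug
miR-92b: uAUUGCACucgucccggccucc

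Counted from the 5′ end, miR-17 and miR-20a differed at 2 positions (C1U and C12U), and miR-20a and miR-20b at 2 positions (U1C and U10C). miR-19a and miR-19b differed at 1 position (U11C). miR-92a and miR-92b differed at 2 positions of their shared length (U10C and G21C), and miR-92b is 1 base longer. The miR-17-92 hairpins lie at chr14:115043671-115044506 on the plus strand, the 6 hairpins of the miR-106a-363 cluster at chrX:52741693-52742567 on the minus strand, and miR-92b at chr3:89227116-89227198 on the minus strand. These coordinates are those of GRCm38.p6 and played no part in the array measurement, whose headers name mm9. miR-19b and miR-92a are made from both clusters with the same mature sequence, so their signal cannot be assigned to either locus. How far each probe binds the near-identical mate of its target was not tested.

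All 6 arrays lay on 1 slide with 1 recorded scan time. Between 74 and 103 of the mouse entries per array were well above background, a flag set per spot by the scanner software. The 75th percentile used to scale the arrays lay between 249.5 and 402.4 intensity units. Over the 84 miRNAs tested, by the median of absolute log2 differences, control 1 stood apart from the other controls (0.48 from control 2 and 0.52 from control 3) and lay between 0.16 and 0.26 from the TGFβ arrays, while controls 2 and 3 differed by 0.06. The comparisons of members are therefore also given without control 1. Of 17 renal tubule marker miRNAs, 7 were well above background on at least 1 array, and all of them belong to the miR-30, miR-10 and miR-196 families. However, miR-30b and miR-30e were below the flag on every array, as were miR-192, miR-194, miR-215 and the miR-200 family members. The summed scaled signal of the tubule markers was 797 to 1084 in control and 735 to 755 in TGFβ-treated cells, and its part in the results on the members was not tested. No mesenchymal (0 of 3), smooth muscle (0 of 2), blood (0 of 6) or endothelial (0 of 2) marker was well above background on any array.

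In these cells miR-18a, miR-19b, miR-20a and miR-92a were well above background on all 6 arrays, miR-20b on 4, and miR-17, miR-19a and miR-92b on none. With all 6 arrays 0 of the 5 tested members passed the threshold (limma, Benjamini-Hochberg adjusted over 84 miRNAs, adjusted p under 0.05), and the share passing over all tested miRNAs was 0.00%. Before adjustment, 0 members and 8 of 84 miRNAs (9.52%) had a p under 0.05. With the replicate number as a block 1 of the 84 passed, and it was no member. Of the 70 miRNAs well above background on all 6 arrays, 34.3% had a higher mean in TGFβ-treated cells, against 3 of the 4 members among them. The median log2 difference was 0.22 over those 4 members and -0.13 over the 70. Values below are log2 scaled signals unless another unit is given. They can be compared between arrays for 1 miRNA, but not between miRNAs, whose probes differ.

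**Figure D1:**
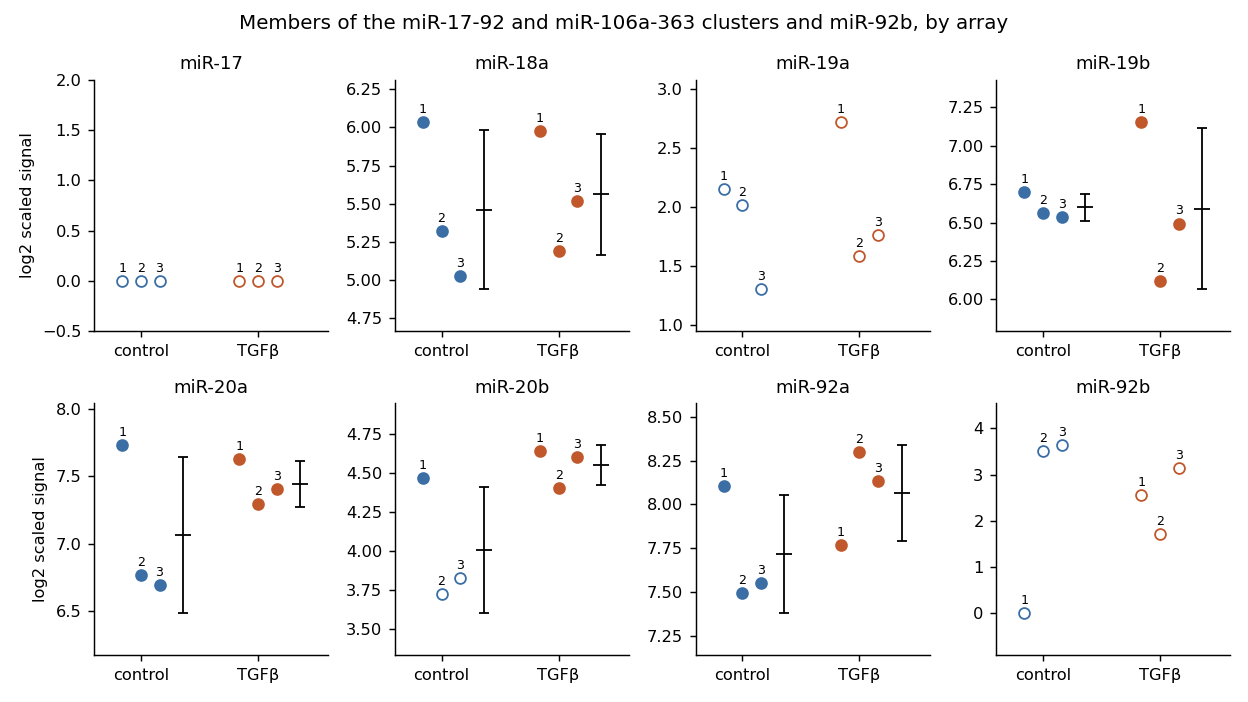
Log2 scaled signal (vertical axis, own range in each panel) of the 8 members on the 3 control (blue) and 3 TGFβ (orange) arrays, numbered by replicate; filled points were well above background, open points were not, and bars give the mean and SD where at least 4 arrays were well above background. Control 1 lies with or above the TGFβ arrays for miR-20a, and controls 2 and 3 lie below all TGFβ arrays for miR-20a, miR-20b and miR-92a.

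The miR-17 seed group was read as miR-17, miR-20a and miR-20b, miRNAs known to repress the cell cycle inhibitor Cdkn1a and the receptor Tgfbr2. In replicate order, miR-20a read 7.73, 6.77 and 6.69 on the controls and 7.63, 7.30 and 7.40 on the TGFβ arrays. Control 1 was the highest of the 6 arrays and controls 2 and 3 the lowest, so the groups overlapped. The control mean was 7.06 ± 0.58 and the TGFβ mean 7.44 ± 0.17 (SD, n = 3). They differed by 0.38 (SE 0.31, limma adjusted p = 0.505), with a 95% interval from -0.37 to 1.13. The intensity before scaling was 236 on control 1, 89.5 and 79.0 on controls 2 and 3, and between 176 and 221 on the TGFβ arrays. Controls 2 and 3 were also the dimmest arrays as a whole, with a 75th percentile of 268.6 and 249.5 against 339.9 to 402.4 on the other 4, so unscaled values say little about miR-20a alone.

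miR-20b, the counterpart of miR-20a in the miR-106a-363 cluster, read 4.47, 3.72 and 3.83 on the controls and 4.64, 4.40 and 4.60 on the TGFβ arrays. Of the controls, control 1 alone was well above background, as were all 3 TGFβ arrays, and miR-20b was admitted to the test through the TGFβ group. The groups overlapped because control 1 lay above TGFβ 2. Its log2 difference was 0.54 (SE 0.23, limma adjusted p = 0.391), with a 95% interval from -0.03 to 1.11. Normexp, another background correction with an offset of 50 units, turned the difference to -0.11. With it 20 of the 84 miRNAs had a difference above 0, against 35 with the main processing. The cause of this turn was not tested. The scaled signal of its brighter probe on controls 2 and 3 was 21.3 and 23.2, against 31.9 on control 1 and between 29.4 and 37.0 on the TGFβ arrays.

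miR-17 itself had 0 of 20 spots well above background on each array. Both of its probes had a negative mean processed signal throughout, from -8.15 to -2.63 intensity units. Its cluster mate miR-20a, from the same primary transcript and with the same seed, was well above background on all arrays at the same time. The probe identifiers of miR-17 have a form shared by 108 probes of 53 miRNAs, of which 13 were well above background on at least 1 array, compared with 174 of the 1651 other mouse probes. Whether the miR-17 probes bind their target was not tested, and no fold is given.

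miR-18a, a known repressor of Ctgf and of the mediator Smad4, stands alone in its seed group among the members. It read 6.04, 5.32 and 5.02 on the controls and 5.98, 5.19 and 5.52 on the TGFβ arrays. The groups overlapped throughout, with control 1 the highest and control 3 the lowest of the 6 arrays. The means were 5.46 ± 0.52 and 5.56 ± 0.40 (SD, n = 3), and the log2 difference was 0.10 (SE 0.33, limma adjusted p = 0.851). The 95% interval ran from -0.71 to 0.91 and left the sign unsettled. The sign turned with normexp (-0.11), without control 3 (-0.11), without TGFβ 1 (-0.11) and when slide columns were blocked (-0.33).

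The miR-19 group, known for carrying much of the cluster's oncogenic activity, was read as miR-19b, while miR-19a stayed below the flag. miR-19b read 6.70, 6.56 and 6.54 on the controls and 7.16, 6.12 and 6.49 on the TGFβ arrays. TGFβ 1 was the highest and TGFβ 2 the lowest of the 6 arrays, with all 3 controls between TGFβ 1 and TGFβ 3. The controls, control 1 included, lay close together (6.60 ± 0.09) and the TGFβ arrays far apart (6.59 ± 0.53, SD, n = 3). The log2 difference was -0.01 (SE 0.28, limma adjusted p = 0.987), with a 95% interval from -0.69 to 0.67. Its sign is not settled, since it was 0.34 without scaling, 0.01 with the percentile taken over all mouse probes and 0.23 without TGFβ 2.

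miR-19a had values between 1.30 and 2.15 on the controls and between 1.58 and 2.72 on the TGFβ arrays, all below the flag. At most 2 of its 20 spots on any array were well above background, and its 2 probes had mean processed signals from 0.177 to 10.3 intensity units. The dimmest mouse probe well above background on an array read between 22.4 and 27.8 units. No fold is given for miR-19a.

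The miR-92 group has a seed unlike that of the other members and was read as miR-92a, which is known in endothelium for repressing the integrin subunit Itga5. miR-92a read 8.11, 7.49 and 7.55 on the controls and 7.77, 8.30 and 8.13 on the TGFβ arrays. Controls 2 and 3 were the lowest arrays, but control 1 lay above TGFβ 1, and the groups overlapped. The control mean was 7.72 ± 0.34 and the TGFβ mean 8.07 ± 0.27 (SD, n = 3). They differed by 0.35 (SE 0.24, limma adjusted p = 0.464), with a 95% interval from -0.23 to 0.93. Among the TGFβ arrays the order was the reverse of that of miR-19b, with TGFβ 1 the lowest and TGFβ 2 the highest.

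miR-92b had 4 probes and 20 spots per array, of which 0 were well above background on any array. It was at the floor of 0 on control 1, read 3.50 and 3.63 on controls 2 and 3, and 2.56, 1.71 and 3.15 on the TGFβ arrays. The unscaled means were 0.356 units on control 1, 9.30 and 9.47 on controls 2 and 3, and between 4.03 and 9.24 on the TGFβ arrays, all below the dimmest probe that was well above background. These values lie within background and give no fold.

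**Figure D2:**
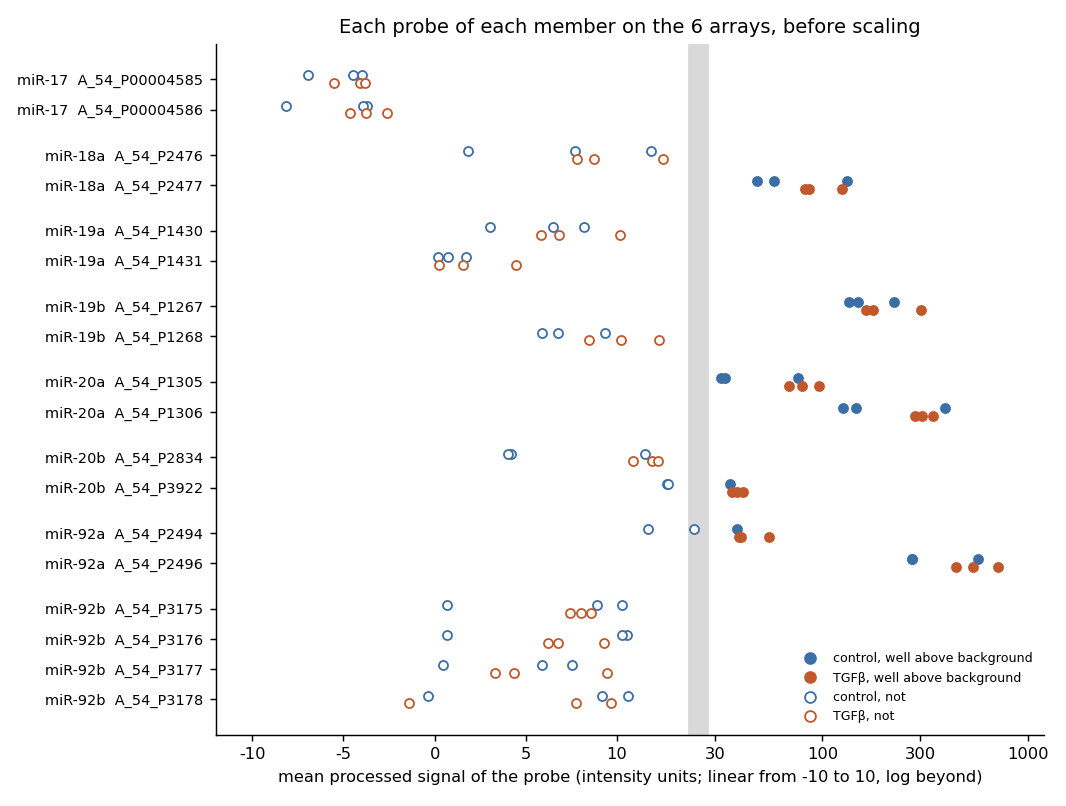
Mean processed signal before scaling (horizontal axis, intensity units, linear from -10 to 10 and log beyond) of each of the 18 probes of the members on control (blue) and TGFβ (orange) arrays; filled points were well above background. The grey band spans the dimmest mouse probe well above background on each array (22.4 to 27.8 units); both miR-17 probes lie below 0, and both miR-20a probes lie to the right of the band.

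Probes of 1 member differed widely in brightness, and 7 of the 18 were tested. For miR-20a both probes were well above background on all arrays, and their log2 differences were 0.55 (SE 0.26) and 0.34 (SE 0.32). For miR-92a the brighter probe differed by 0.33 (SE 0.24) and the dimmer by 0.57 (SE 0.26). The dimmer probe was not well above background on controls 2 and 3, so without control 1 its size is only a bound. That probe did not pass without control 1 (limma adjusted p = 0.0691, means of 5.27 in TGFβ-treated and 4.51 in control cells). Setting the lowest level well above background in place of lower control values gave 1.18-fold, which is not a tested minimum. The brighter probe of miR-20b differed by 0.45 (SE 0.21), that of miR-18a by 0.08 (SE 0.31) and that of miR-19b by -0.02 (SE 0.28). The other probe of miR-18a, of miR-19b and of miR-20b stayed below the flag on all 6 arrays. With the test run over 128 probes, 0 of the 7 passed (limma, smallest adjusted p among them 0.395), against 0.00% of all probes tested. Over the 38 probe and array combinations well above background the coefficient of variation between spots had a median of 10.3% and ranged from 2.43% to 23.6%.

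Without control 1, miR-20a and miR-20b passed and the other 3 tested members did not. miR-20a was higher in TGFβ-treated cells by 0.71 (SE 0.14, limma adjusted p = 0.0208), or 1.63-fold, with 3 of 3 TGFβ arrays above controls 2 and 3. miR-20b read higher by 0.77 (SE 0.13, limma adjusted p = 0.0157), but it was not well above background on controls 2 and 3. Because miR-20b entered this test only through the TGFβ group, that size and p-value are not support for a change. For its brighter probe, with means of 5.06 in TGFβ-treated and 4.45 in control cells, the lowest level well above background bounds the change at 1.03-fold. This bound is taken from group means and is not a tested minimum. The passing share over all 85 miRNAs tested in that fit was 36.5%, and 12.9% passed as higher.

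miR-92a differed by 0.54 without control 1 (SE 0.19, limma adjusted p = 0.0809), with 3 of 3 TGFβ arrays above controls 2 and 3. miR-18a differed by 0.38 (SE 0.27, limma adjusted p = 0.306) and miR-19b by 0.03 (SE 0.32, limma adjusted p = 0.963), and both overlapped. Of the 4 members well above background on all 6 arrays, miR-20a and miR-92a thus did not overlap and were higher in TGFβ-treated cells. Over all miRNAs 25.9% were higher and 44.7% lower without overlap. With all 6 arrays 0 of these 4 members were without overlap, against 8.33% of all miRNAs higher and 5.95% lower. Of the probes, both of miR-20a (limma adjusted p = 0.0277 each) and the brighter of miR-20b (limma adjusted p = 0.0424) passed, against 32.6% of 129 probes. That miR-20b probe was below the flag on controls 2 and 3. Control 1 was singled out for lying near the TGFβ arrays, and leaving out such an array narrows the control spread by construction. The adjusted p-values do not allow for that choice.

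Control 1 departed from the mean of controls 2 and 3 by 1.00 for miR-20a, 0.87 for miR-18a, 0.69 for miR-20b and 0.58 for miR-92a, but by 0.15 for miR-19b. From the TGFβ mean it departed by 0.29, 0.48, -0.08, 0.04 and 0.11 in the same order. The gap between control 1 and the other controls was thus larger than the all-array difference between the groups for each of these 5 members. With control 1 and TGFβ 1 both left out, an alternative chosen after the data were seen, 41.2% of all miRNAs passed. There miR-92a passed as well, at 0.69 (SE 0.11, limma adjusted p = 0.012), beside miR-20a at 0.62 and miR-20b at 0.73. In that fit too miR-20b was tested only through the TGFβ group. With all 6 arrays and a weight for each array, the same 3 members passed, against 47.6% of all miRNAs. The limma adjusted p was 0.0292 for miR-20a, 0.0184 for miR-20b and 0.0323 for miR-92a. The weights were estimated from these same values, at 0.21 for control 1 against 2.53 and 2.40 for controls 2 and 3. That fit thus gives control 1 little part, and its p-values do not allow for this.

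Slide position was considered as a batch. All 3 controls and TGFβ 1 lay in row 1 and TGFβ 2 and 3 in row 2, and 2 slide columns held an array of each group. TGFβ 2 less control 1, both in column 1, gave -0.85 for miR-18a, -0.58 for miR-19b, -0.43 for miR-20a, -0.06 for miR-20b and 0.19 for miR-92a. TGFβ 3 less control 2, both in column 2, gave 0.20, -0.07, 0.64, 0.88 and 0.64 in the same order. miR-92a was the only tested member above 0 in both columns, and miR-19b the only one below 0 in both. Each value is a difference of single arrays, with control 1 in column 1. The share of all 84 miRNAs with such a pattern was not counted. With the column as a block 0 members and 0 of all 84 miRNAs passed (limma adjusted p = 0.941 for each of the 5 members, smallest over all miRNAs 0.558). The estimate of that fit is the mean of these 2 single differences, so it adds no information to them. Row 2 held no control, and in row 1 TGFβ 1 was the single TGFβ array. With the row as a block the difference is therefore that of TGFβ 1 alone from the 3 controls. It was 0.05 for miR-92a and 0.56 for miR-19b, against 0.35 and -0.01 without a block.

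**Figure D3:**
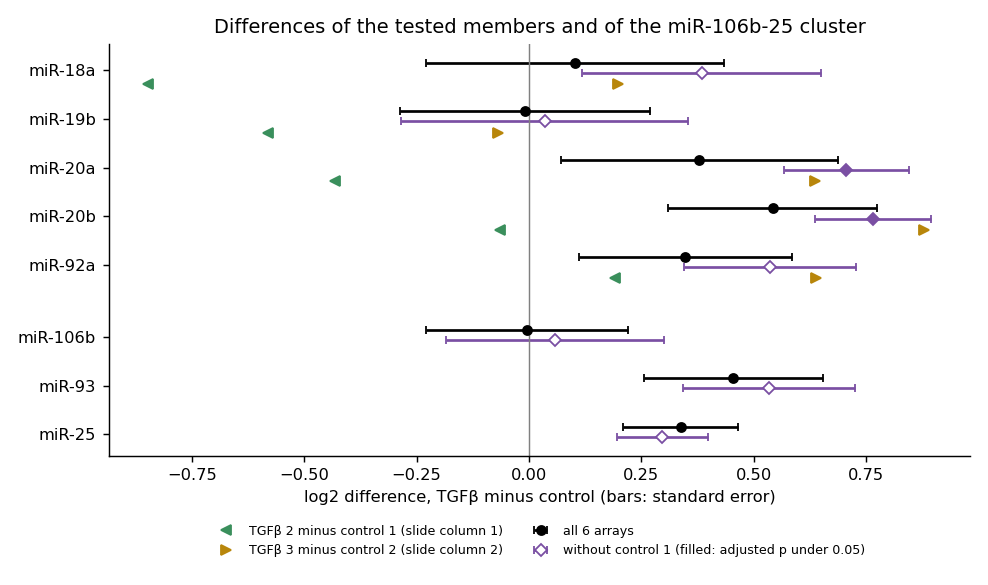
Log2 difference between TGFβ-treated and control cells (horizontal axis) for the 5 tested members and the 3 miRNAs of the miR-106b-25 cluster, with all 6 arrays (black, bars are standard errors) and without control 1 (purple diamonds, filled where the adjusted p was under 0.05); triangles give the single differences within slide columns 1 and 2. Filled diamonds are seen for miR-20a and miR-20b, and miR-19b and miR-106b lie near 0 in both fits.

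The ratio of 2 members on the same array does not depend on the scaling between arrays, and it compares how far the 2 signals moved. Since miR-19b and miR-92a come from both clusters, only miR-18a over miR-20a compares mates of the miR-17-92 cluster alone. The planned pairs of homologous members could not be used, since in none were both members well above background on all 6 arrays, and the 6 pairs among miR-18a, miR-19b, miR-20a and miR-92a were taken after the data were seen. No ratio passed (exact two-sided permutation tests, adjusted p between 0.84 and 1 over the 6), and 3 arrays against 3 cannot give a p below 0.1. The log2 ratio of miR-19b to miR-20a was -1.03, -0.20 and -0.16 on the controls and -0.47, -1.18 and -0.91 on the TGFβ arrays. Controls 2 and 3 had the highest ratios of the 6 arrays and control 1 lay among the TGFβ arrays, as for the level of miR-20a. The difference in this ratio was -0.39 with all arrays (exact permutation p = 0.3) and -0.67 without control 1.

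The ratio of miR-19b to miR-92a spread most within the TGFβ group, with -0.61, -2.18 and -1.64, against -1.41, -0.93 and -1.01 on the controls. The log2 ratio of miR-20a to miR-92a had a control mean of -0.65 ± 0.25 and a TGFβ mean of -0.62 ± 0.44 (SD, n = 3). It differed by 0.03 (exact permutation p = 1). The ratio of miR-18a to miR-20a differed by -0.28 (exact permutation p = 0.3), that of miR-18a to miR-92a by -0.25 (exact permutation p = 0.6) and that of miR-18a to miR-19b by 0.11 (exact permutation p = 0.7).

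**Figure D4:**
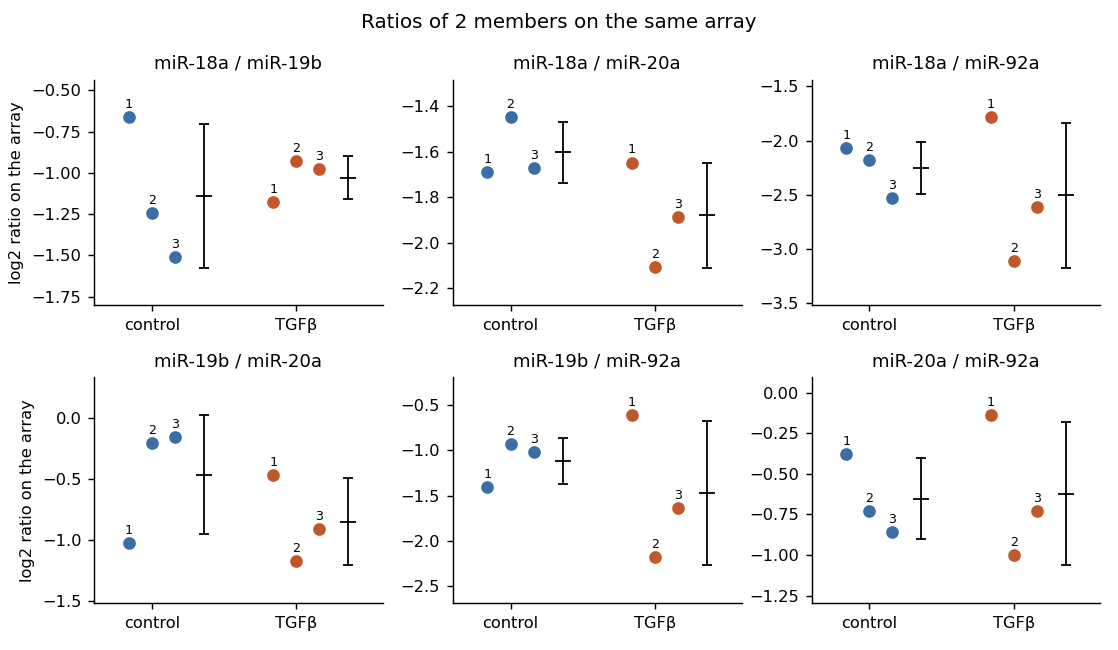
Log2 ratio of 2 members on the same array (vertical axis, own range in each panel) for the 6 pairs of members well above background on all 6 arrays, by control (blue) and TGFβ (orange) array, with the mean and SD beside the points. The groups overlap in every panel, and for miR-19b over miR-20a controls 2 and 3 lie above the other 4 arrays.

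Related miRNAs outside the 8 members were read from a list of 13 array entries, namely the miR-106b-25 cluster, further miRNAs with a seed of the members, miR-363-3p and the opposite arms of the members. Of these, 3 were well above background on at least 1 array, and they were the 3 miRNAs of the miR-106b-25 cluster, a further paralogue that lies within the replication gene Mcm7. With all 6 arrays 0 of the 3 passed, against 0.00% of all miRNAs, and without control 1 also 0, against 36.5%. miR-25, which has the miR-92a seed, read 8.45, 8.52 and 8.59 on the controls and 8.89, 8.88 and 8.80 on the TGFβ arrays, so that its groups did not overlap. Its log2 difference was 0.34 (SE 0.13, limma adjusted p = 0.391) with all arrays and 0.30 without control 1. On this miRNA control 1 was the lowest array, whereas for its seed mate miR-92a it was the third highest.

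miR-93 and miR-106b both have the miR-17 seed. miR-93 differed by 0.45 (SE 0.20, limma adjusted p = 0.391) and miR-106b by -0.00385 (SE 0.22, limma adjusted p = 0.987). The difference between these differences was not tested. miR-106b read between 7.85 and 8.08 on the controls and between 7.56 and 8.32 on the TGFβ arrays. miR-18b, miR-32, miR-363-3p, miR-367 and the opposite arms miR-17*, miR-18a*, miR-19a*, miR-20a*, miR-20b* and miR-92a-2* stayed below the flag on all 6 arrays. Of the 3 guide-strand entries read here that come from the miR-106a-363 cluster alone, namely miR-20b, miR-18b and miR-363-3p, only miR-20b was well above background on any array. Its sequence differs from that of the brighter miR-20a at 2 positions, and how far its probes bind miR-20a was not tested.

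The profile over the 6 arrays was compared by the mean absolute difference of log2 signal after each miRNA was centred on its own mean. The median over all 3486 pairs of tested miRNAs was 0.36. Nearest to miR-20a were miR-449a (0.11), miR-29a (0.12) and miR-20b (0.12). Nearest to miR-19b were miR-106b (0.07), miR-296-5p (0.10) and miR-29c (0.12). miR-18a lay nearest to miR-20a (0.17), miR-106b (0.18) and miR-29b (0.19), and miR-92a to miR-193b (0.15), miR-449a (0.17) and miR-206 (0.17). Of these 12 neighbours 2 were members, both of the miR-17-92 or miR-106a-363 clusters. Between the 4 members themselves the distance ran from 0.17 for miR-18a and miR-20a to 0.44 for miR-19b and miR-92a. The 3 distances above the median over all pairs were those of miR-19b with miR-92a, miR-19b with miR-20a (0.38) and miR-18a with miR-92a (0.37). The distances of miR-18a with miR-19b (0.23) and of miR-20a with miR-92a (0.25) lay below it.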

How the data were processed

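Each sample was 1 one-colour Agilent array labelled with Cy3. The deposited values are fluorescence intensity per spot, background-subtracted and not scaled between arrays, made by the authors with Agilent Feature Extraction (version 10.7.3.1 per the file headers, 10.1.1 per the submitters' processing notes). The authors' value table gave the same intensities (largest difference 0). No spot was saturated.

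Spots of a probe were averaged without outlier-marked spots, then the probes of a miRNA. Arrays were scaled to the 75th percentile over the 105 mouse probes well above background on all 6 arrays, a floor of 1 was set and log2 was taken. The scanner's flag had to be set on a share of at least 0.5 of a probe's spots. A miRNA was tested if this held on all 3 arrays of a group (84 miRNAs). The test was limma 3.58.1 (R 4.3.3), with moderated two-sided p-values adjusted by Benjamini-Hochberg. It was also run on simulated data with independent noise for each miRNA and array. No simulated array departed as a whole as control 1 did, so that run does not cover this case. Precision is limited by the number of arrays: the median SE of a log2 difference was 0.23.

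The members, lists and tests were chosen with earlier results of these data known. The miRNAs named were the members, the 3 nearest in profile to each member above background on all arrays, and the listed related miRNAs above background. The labels give replicates 1 to 3 in both groups without stating a pairing. Deviations of same-numbered arrays from their group means correlated over the 84 miRNAs (Pearson r 0.38, 0.37 and 0.52 for numbers 1, 2 and 3, against -0.48 to 0.38 for different numbers, the highest being control 2 with TGFβ 3), so the numbers were treated as pairs in an alternative with a replicate block. Those 84 miRNAs are not independent.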

Additional observations from a re-analysis of the deposited data

How the results depend on the processing

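Over 23 alternatives miR-20a and miR-92a kept a positive difference, from 0.10 to 0.72 and from 0.05 to 0.69. The alternatives reuse the same arrays. Those that changed the filter, the floor, the variance model, the mean over probes or the replicate block left both estimates as they were. The kept sign is therefore no measure of robustness, and how many other miRNAs kept theirs was not counted. The count of miRNAs passing limma was 0 with all arrays, where 8 had an unadjusted p under 0.05. It was 40 with array weights and 35 without control 1 and TGFβ 1 together. When each array was left out in turn it was between 0 and 31, and the omission of control 1 alone gave any. With the replicate block it was 1, and that block changed no call on a member (limma adjusted p of the members between 0.351 and 0.991). The count of members passing was 3 with array weights, 3 without control 1 and TGFβ 1 together, and between 0 and 2 when each array was left out. Each count above 0 includes miR-20b, which was tested only through the TGFβ group. The array weights were lowest for control 1. The sign of miR-19b turned to 0.0149 with the percentile over all mouse probes, 0.34 without scaling, 0.0426 with median scaling and 0.00608 with array weights. It also turned to 0.0307 on the brightest probe and to 0.56 with the slide row, a fit that rests on TGFβ 1 alone. The difference of miR-19b ran from -0.29 to 0.23 when each array was left out. Its brighter probe turned to 0.0211 without control 1. The sign of miR-18a turned to -0.11 with normexp and to -0.33 with the slide column, a fit that rests on 2 pairs of arrays. The difference of miR-18a ran from -0.11 to 0.38 when each array was left out. The sign of miR-20b turned to -0.11 with normexp. Leaving out arrays moved the ratio of miR-18a to miR-19b from -0.0754 to 0.35, of miR-18a to miR-92a from -0.60 to 0.056, and of miR-20a to miR-92a from -0.21 to 0.22. Without scaling the median over all miRNAs moved from -0.09 to 0.26. All 5 tested members were then higher, as were 67 of all 84 miRNAs tested. The cause of these turns was not tested. Normexp was run on the median spot signal. The planned ratios of homologous members were not run, because a member of each pair was below the flag on some array. Signal near background limits miR-20b, miR-19a, miR-92b and miR-17.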
